A study of Homo sapiens with 35 samples.

Results

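RNA polymerase II (RNA Pol II), the enzyme that transcribes protein-coding genes, was mapped by ChIP-seq in U87 cells that carried a CRISPR knockdown of NFKB2 (NFKB2 KD) and in control U87 cells. U87 is an established human glioblastoma line. All 4 libraries compared here came from cells treated with 10 ng/ml TWEAK, a cytokine of the tumour necrosis factor family, for 48 h, and each group had 2 libraries. All peaks of these lists were taken, which gave 113213 of the 230863 peaks in the 8 RNA Pol II lists of the series, from 4 of its 35 samples. The RNA of the same lines under the same treatment was measured by RNA-seq in 3 libraries per group. Untreated control cells and TWEAK-treated cells with a CRISPR knockdown of ETS1 (ETS1 KD) were profiled alongside, with 2 RNA Pol II and 3 RNA-seq libraries each, and their values are given beside those of the 2 main groups. A comparison of those groups with the controls would use the same control libraries, so none is tested here. The knockdown lines were made by lentiviral transduction with Cas9 and a guide RNA. The labels do not name the NFKB2 guide, and whether the lines were clones or pools is not given in the sources used here. The study's methods describe the RNA-seq replicates as biological. No source used here says so of the ChIP-seq replicates, so p-values from the peak lists measure only the spread between these libraries, which may be technical.

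NFKB2 encodes p100, which is processed to p52, the DNA-binding subunit of the non-canonical NF-κB pathway. In that pathway TWEAK binds its receptor Fn14 (TNFRSF12A), the adaptors TRAF2 and TRAF3 and the cIAP ligases (BIRC2, BIRC3) stop degrading the kinase NIK (MAP3K14), and NIK acts through IKKα (CHUK) on p100. The p52 so formed pairs mostly with RelB and binds κB sites in promoters and enhancers, among them those of NF-κB genes themselves. RNA Pol II ChIP signal is strongest near start sites, where the enzyme initiates and pauses, and weaker along gene bodies.

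The targeted gene was lower in every NFKB2 KD RNA-seq library. Total counts were 28484556, 40192606 and 35816283 in the control libraries and 34447497, 36033520 and 31843189 in the NFKB2 KD libraries. NFKB2 RNA was 235, 289 and 346 CPM (read counts scaled to library size) in the control libraries and 75.6, 92.6 and 105 CPM in the NFKB2 KD libraries, against 49.6, 54.5 and 66.6 CPM in untreated cells. The control and NFKB2 KD values did not overlap, and NFKB2 RNA fell 3.19-fold (log2 change -1.67 ± 0.18, SE, edgeR adjusted p = 0.00339). Of 6 mesenchymal glioma genes used to check the label of the line, 5 (VIM, CD44, SPARC, TNC and FN1) held RNA Pol II in all 4 libraries and NES held it in control replicate 1 alone. Promoters of all 4 oligodendrocyte genes and all 3 epithelial genes listed had no peak in any of the 4. Of 3 neuronal and 3 blood markers, SYT1, SNAP25 and CD68 held RNA Pol II in all 4, and the other 3 (RBFOX3, PTPRC and CD3E) in none.

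The lists differed in length, and NFKB2 KD replicate 2 stood apart. It held 11175 peaks over 5.66 Mb, against 30310 peaks over 19.0 Mb in NFKB2 KD replicate 1, and 44672 and 27056 peaks over 27.4 and 16.3 Mb in control replicates 1 and 2. The untreated and ETS1 KD lists held 24710 to 38307 peaks. When each list was reduced to its 11175 strongest peaks, 69.9% of the peaks of control replicate 1 were shared with control replicate 2 and 69.5% with NFKB2 KD replicate 1, but 56.3% with NFKB2 KD replicate 2. NFKB2 KD replicate 1 shared 58.9% of its peaks with its own replicate and 72.8% and 73.6% with the controls. The first NFKB2 KD list was thus closer to the control lists than to the second, and each main count is also given with lists of equal length or without that library. The read depth behind the lists is unknown.

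Some of the promoters described below are shown here, 250 bases before to 50 bases after the annotated start site. They are printed 5′ to 3′ on the strand of the gene, with matches to the κB consensus on either strand in capitals. They were read from hg38 at the GENCODE start. CD83, TRAF1 and TRAF3 lost RNA Pol II, NFKB2 and BIRC3 held it in all but NFKB2 KD replicate 2, and CXCL2 kept it. CD83 lies on the plus strand at chr6:14117522-14117821, TRAF1 on the minus strand at chr9:120926747-120927046 and TRAF3 on the plus strand at chr14:102777199-102777498. NFKB2 lies on the plus strand at chr10:102395455-102395754, BIRC3 on the plus strand at chr11:102317234-102317533 and CXCL2 on the minus strand at chr4:74099146-74099445.
CD83: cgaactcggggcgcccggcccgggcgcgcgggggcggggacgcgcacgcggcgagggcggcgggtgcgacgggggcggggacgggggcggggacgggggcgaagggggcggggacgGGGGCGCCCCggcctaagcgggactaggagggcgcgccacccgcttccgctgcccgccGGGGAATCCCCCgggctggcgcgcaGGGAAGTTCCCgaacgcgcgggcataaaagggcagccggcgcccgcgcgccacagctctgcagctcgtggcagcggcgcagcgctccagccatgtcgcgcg
TRAF1: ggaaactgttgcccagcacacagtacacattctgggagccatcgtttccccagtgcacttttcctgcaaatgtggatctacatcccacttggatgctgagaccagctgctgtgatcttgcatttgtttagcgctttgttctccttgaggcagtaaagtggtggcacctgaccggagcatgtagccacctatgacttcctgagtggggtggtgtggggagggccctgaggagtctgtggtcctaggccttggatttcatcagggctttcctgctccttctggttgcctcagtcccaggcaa
TRAF3: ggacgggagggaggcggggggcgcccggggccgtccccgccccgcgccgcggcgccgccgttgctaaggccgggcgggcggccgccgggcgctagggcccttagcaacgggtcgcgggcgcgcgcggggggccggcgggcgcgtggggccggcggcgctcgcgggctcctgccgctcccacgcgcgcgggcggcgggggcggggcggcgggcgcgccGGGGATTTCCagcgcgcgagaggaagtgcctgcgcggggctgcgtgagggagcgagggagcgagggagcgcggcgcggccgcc
NFKB2: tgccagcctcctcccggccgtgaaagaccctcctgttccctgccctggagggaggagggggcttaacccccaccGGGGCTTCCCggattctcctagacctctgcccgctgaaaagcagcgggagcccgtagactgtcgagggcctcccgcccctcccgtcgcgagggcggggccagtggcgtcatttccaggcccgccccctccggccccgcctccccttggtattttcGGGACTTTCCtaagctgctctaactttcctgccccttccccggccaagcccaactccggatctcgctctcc
BIRC3: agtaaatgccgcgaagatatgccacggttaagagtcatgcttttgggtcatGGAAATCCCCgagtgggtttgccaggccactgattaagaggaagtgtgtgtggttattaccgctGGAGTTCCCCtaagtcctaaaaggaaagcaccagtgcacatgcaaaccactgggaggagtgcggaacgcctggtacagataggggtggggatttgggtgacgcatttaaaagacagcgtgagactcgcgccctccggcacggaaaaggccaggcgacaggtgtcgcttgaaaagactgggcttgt
CXCL2: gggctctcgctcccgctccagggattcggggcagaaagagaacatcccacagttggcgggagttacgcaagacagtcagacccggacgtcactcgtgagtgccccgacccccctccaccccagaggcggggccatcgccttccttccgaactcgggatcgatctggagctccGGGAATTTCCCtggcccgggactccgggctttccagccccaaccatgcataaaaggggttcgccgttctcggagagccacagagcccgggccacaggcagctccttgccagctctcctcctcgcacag
The consensus matched in 3 places at CD83, where several overlapping matches share a run of capitals, in 2 places at NFKB2 and BIRC3, in 1 place at TRAF3 and CXCL2, and not in the TRAF1 window. In other windows read in the same way, CCL3, CTSS, CXCL8, G0S2, GYPC, STEAP3 and USP35 had no match. RELB had 2 matches and NFKBIE had 1. Over all protein-coding promoters the share with a match was 12.6%, against 15.2% of the 395 that lost RNA Pol II, 12.6% of the 5578 that kept it and 12.7% of the 71 that gained it. The ETS core CCGGAAG was present in 16.5% of lost, 25% of kept and 16.9% of gained promoters and in 14.1% of all. TGANTCA, the AP-1 motif, was present in 5.82% of lost, 3.44% of kept and 1.41% of gained promoters and in 5.43% of all, and TATAAA in 2.78%, 5.95%, 2.82% and 9.7%. Both strands were searched for each motif, and a match is a description of these bases only.

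RNA Pol II was kept at the strong control sites and lost at weak ones. Peaks of the 4 lists that shared at least 1 base were merged into 61486 sites. A site was called lost when both control libraries and neither NFKB2 KD library had a peak (2364 sites, 3.84%), kept when all 4 had one (6836 sites, 11.1%) and gained when only both NFKB2 KD libraries had one (206 sites, 0.335%), and the other 52080 sites were mixed. An exact permutation test of presence in 2 against 2 libraries cannot give a two-sided p below 0.333, so presence was not tested site by site and these counts are a description. Of the 14540 sites held by both control libraries, 82.0% had a peak in NFKB2 KD replicate 1 and 48.7% in replicate 2, and 16.3% had one in neither. Of the 7596 sites held by both NFKB2 KD libraries, 93.4% and 93.9% had a peak in the 2 controls and 2.71% in neither. The median −log10 q of lost sites was 3.87 and 3.52 in control replicates 1 and 2, against 20.9 and 15.4 at kept sites.

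When the 14540 control sites were ranked by peak strength and divided into 10 bins of 1454, none was lost in the 2 strongest bins and 752 (51.7%) in the weakest. NFKB2 KD replicate 1 held a peak at every site of the 2 strongest bins. NFKB2 KD replicate 2 held one at 97.9% of the strongest bin and at 9.83% of the weakest. Of the 2364 lost sites, 166 (7.02%) were among the 11175 strongest peaks of both control libraries. With all 4 lists reduced to that length, 545 sites were lost, 5214 kept and 320 gained, so that lost sites outnumbered gained sites 2364 to 206 with full lists and 545 to 320 with equal ones. Without NFKB2 KD replicate 2, 2618 sites were lost and 9680 gained.

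**Figure D1:**
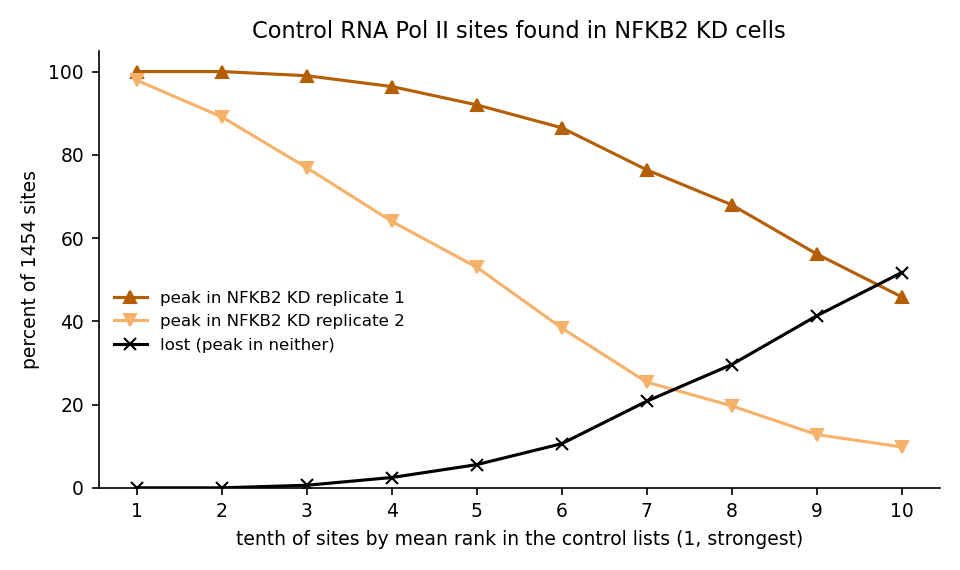
Percent of sites held by both control libraries that had a peak in NFKB2 KD replicate 1, in NFKB2 KD replicate 2 or in neither (lost), for 10 bins of 1454 sites from the strongest (1) to the weakest (10). Lost sites went from 0 in the 2 strongest bins to 51.7% in the weakest, and replicate 2 fell off sooner than replicate 1.

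Lost and kept sites lay in different parts of genes. A promoter was defined, for 1 start site per gene, as the 1000 bp before it and the 100 bp after it. Of the lost sites 21.4% (95% exact interval 19.8 to 23.2, counting error only) overlapped a promoter and 47.6% lay in introns, while 79.8% of kept sites (78.9 to 80.8) overlapped a promoter and 8.88% lay in introns. Gained sites overlapped a promoter in 36.4% (29.8 to 43.4). The difference moved with peak strength: with lists of equal length the promoter shares were 53.0% of lost, 84.7% of kept and 49.7% of gained sites. A p52 site found in both TWEAK-treated control libraries (2941 in all) overlapped 2.58% of lost, 6.16% of kept and 2.91% of gained sites. An ETS1 site (1981 in all) overlapped 2.28%, 8.06% and 6.31%. Over all merged sites the shares were 1.76% for p52 and 1.99% for ETS1. Kept sites were wider than lost ones (median 1043.5 against 498.5 bp). Counted by promoter window, a p52 site was found at 3.95% of lost, 4.35% of kept and 3.23% of gained promoters. An ETS1 site was found at 5.26%, 7.9% and 12.9% of them, the last being 12 of 93 promoters (95% exact interval 6.85 to 21.5). The shares were 2.65% for p52 and 5.22% for ETS1 at mixed promoters, and 1.11% and 2.2% over all promoters.

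The 5 lost sites that ranked highest in the controls were 3 promoters and 2 intronic sites. The promoters were those of CD83, a surface glycoprotein of activated immune cells, TMEM14C, a mitochondrial porphyrin transporter, and TARS2, the mitochondrial threonyl-tRNA synthetase. At TMEM14C (chr6:10722756-10723408) fold enrichment over background was 11.6 and 10.8 in the controls and 6.05, 9.69, 6.5 and 6.83 in the untreated and ETS1 KD libraries, so the absence of a peak was seen in both NFKB2 KD libraries and no other. At TARS2 (chr1:150487088-150487599) it was 11.3 and 10.6 in the controls, 5.01 and 10.8 in untreated cells and 5.42 in ETS1 KD replicate 1. RNA of TMEM14C and TARS2 had log2 changes of 0.07 and 0.13 (edgeR adjusted p = 1.0 for each). The intronic sites lay in TBC1D5 (chr3:18063830-18065462), with fold enrichments of 10.9 and 13.5, and in SNX9 (chr6:157827012-157827459), with 7.1 and 18.9.

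The 5 gained sites that ranked highest were weaker. They were the promoter of STEAP3, a ferrireductase (fold enrichment 6.56 and 8.28 in the NFKB2 KD libraries, also found in untreated replicate 2 and both ETS1 KD libraries), the shared promoter of KCTD21 and USP35 (7.16 and 6.49, found in none of the other RNA Pol II libraries), introns of HOXD-AS2 (6.69 and 12.1) and RORA (11.9 and 5.32), and an intergenic site on chromosome 1 (chr1:143251591-143252083) with 1.64 and 2.48. RNA of STEAP3, KCTD21 and USP35 did not pass the test, with log2 changes of 0.23, -0.03 and 0.18 (edgeR adjusted p = 1.0 for each).

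By gene, 608 promoters lost RNA Pol II, 7605 kept it and 93 gained it. Among 20046 protein-coding genes these were 395 lost (1.97%), 5578 kept (27.8%) and 71 gained (0.354%). Of the 608 lost promoters, 87 lay in a site that still held an NFKB2 KD peak outside the window, 26 of them protein-coding, which includes TRAF1. With lists of equal length 384 promoters were lost, 129 of them among the 608, 6286 were kept and 207 gained.

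TRAF1, an adaptor of TNF receptors and a classical NF-κB target, lost the RNA Pol II peaks in its promoter window together with most of its RNA. Fold enrichment was 22.9 and 18.0 in the controls (−log10 q 56.8 and 40.3). No peak touched the promoter window in either NFKB2 KD library, nor in the untreated or ETS1 KD libraries. The summits lay 690 and 716 bp downstream of the start, and NFKB2 KD replicate 1 had a peak of 9.24 with its summit at 728 bp, which began 546 bp from the start and so lay outside the window. The site as a whole was therefore reduced in replicate 1 and without a peak in replicate 2, and with peaks narrowed to 250 bp around their summits the TRAF1 window held no peak in any library. TRAF1 RNA was 64.2, 83.1 and 144 CPM in the controls and 19.8, 19.2 and 29.9 CPM in NFKB2 KD cells, against 10.3 to 13.6 CPM untreated and 36.7, 55.7 and 65.3 CPM in ETS1 KD cells. All NFKB2 KD values were below all control values, and TRAF1 RNA fell 4.24-fold (log2 change -2.08 ± 0.30, SE, edgeR adjusted p = 0.0392). The edgeR call was lost with the control and NFKB2 KD groups alone in the fit (adjusted p = 0.22). It was also lost without control replicate 2 (adjusted p = 0.0948), control replicate 3 (0.117) or any 1 of NFKB2 KD replicates 1, 2 and 3 (0.261, 0.227 and 0.0886). The log2 change stayed between -2.31 and -1.66 under all alternatives. Within 10 kb of TRAF1, sites with a peak numbered 4 and 10 in the controls and 1 and 0 in NFKB2 KD cells, from lists of 44672 and 27056 against 30310 and 11175 peaks.

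CD83 and TRAF3 lost RNA Pol II with little difference in RNA. At CD83 fold enrichment was 20.4 and 7.25 in the controls (−log10 q 44.7 and 8.68), 5.61 and 8.68 in ETS1 KD cells, and no peak was called in NFKB2 KD or untreated cells. The CD83 promoter overlapped a p52 site, and it was also lost with lists of equal length, with the wider window, with peaks narrowed to their summits and without NFKB2 KD replicate 2. CD83 RNA was 8.79 to 10.7 CPM in the controls and 9.9 to 10.9 CPM in NFKB2 KD cells, and the 2 groups overlapped (log2 change 0.10 ± 0.14, SE, edgeR adjusted p = 1.0). TRAF3, the adaptor that marks NIK for degradation, had fold enrichments of 9.78 and 6.62 in the controls, none in NFKB2 KD cells, none untreated and 4.35 in ETS1 KD replicate 2. TRAF3 RNA was 82.3 ± 12.8 CPM in the controls and 76.9 ± 2.49 CPM in NFKB2 KD cells (mean ± SD, n = 3), a log2 change of -0.10 with edgeR adjusted p = 1.0.

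CCL3, a chemokine, and CTSS, the lysosomal protease cathepsin S, had weak promoter peaks in both control libraries and none in NFKB2 KD cells. Fold enrichment was 7.0 and 6.62 at CCL3 and 5.08 and 4.94 at CTSS. CCL3 also had a peak of 4.23 in untreated replicate 2. CCL3 RNA was 3.26, 3.88 and 4.22 CPM in the controls and 0.811, 1.85 and 1.64 CPM in NFKB2 KD cells, and CTSS RNA 166 to 204 against 88.0 to 121 CPM. Neither pair of groups overlapped. By edgeR the log2 changes of -1.40 and -0.78 missed the threshold (adjusted p = 0.319 and 0.194), and by DESeq2 both passed it (adjusted p = 0.00614 and 0.0014). CCL3 has near-identical gene copies, so its peak and its counts are uncertain.

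**Figure D2:**
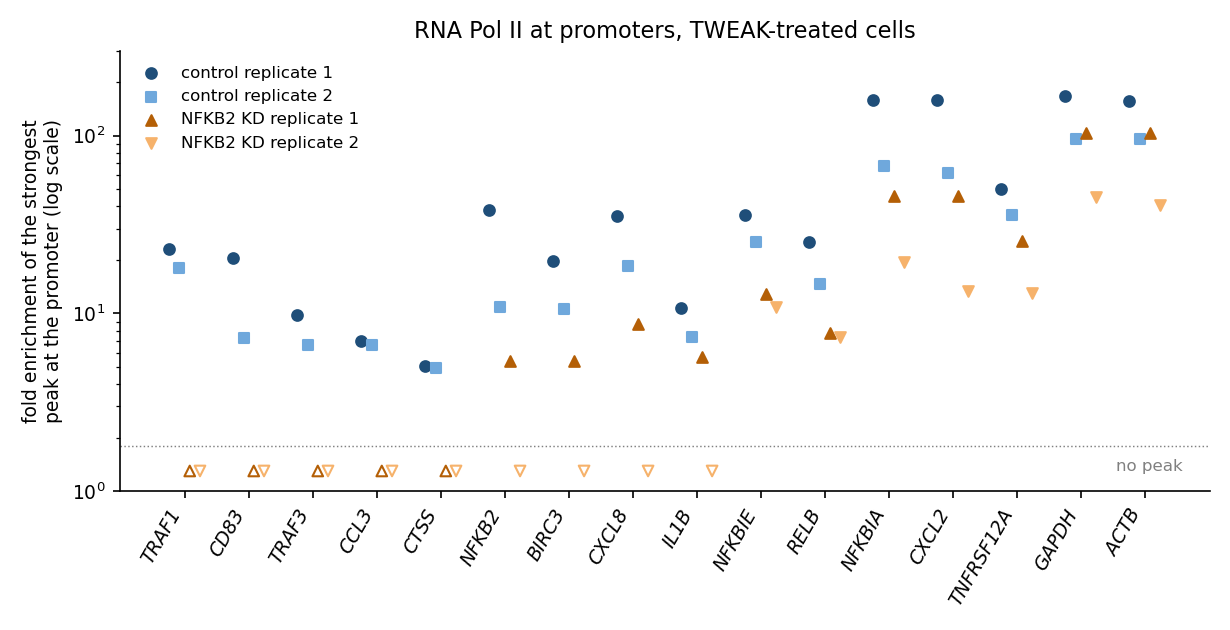
Fold enrichment of the strongest RNA Pol II peak at the promoter of 16 genes (log scale) in each of the 4 libraries, with open symbols below the dotted line where a library had no peak. The 5 genes on the left had no promoter peak in NFKB2 KD cells, the next 4 had none in NFKB2 KD replicate 2, and the others had one in all 4 libraries.

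Of 13 genes of the TWEAK pathway from receptor to kinase complex, 2 lost RNA Pol II (TRAF1 and TRAF3), 6 kept it, 3 were mixed and 2 had no promoter peak, where 1.97% of all protein-coding promoters lost it and 27.8% kept it. The receptor gene TNFRSF12A kept it, with fold enrichments of 49.9 and 35.9 in the controls and 25.4 and 13.0 in NFKB2 KD cells, and its RNA had a log2 change of 0.00 (edgeR adjusted p = 1.0). BIRC3, the inducible cIAP2, had 19.7 and 10.6 in the controls, 5.42 in NFKB2 KD replicate 1 and no peak in replicate 2. BIRC3 RNA was 153 to 202 CPM in the controls and 26.3 to 65.1 CPM in NFKB2 KD cells, without overlap, and its log2 change of -1.81 ± 0.34 (SE) missed the edgeR threshold (adjusted p = 0.194) and passed that of DESeq2 (adjusted p = 0.000225). Of the 13 genes 1 fell by edgeR (TRAF1), where 0.0237% of the 16879 genes tested fell and 0.00592% rose.

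Among the 5 NF-κB subunit genes, RELA and RELB kept RNA Pol II and NFKB1, NFKB2 and REL were mixed. Each of the mixed ones lacked a promoter peak in NFKB2 KD replicate 2 alone. At NFKB2 itself the strongest peak that reached the promoter window was 38.0 and 10.8 in the controls and 5.4 in NFKB2 KD replicate 1, against 8.64 and 4.68 untreated and 9.75 and 7.18 in ETS1 KD cells. These values do not compare the same position: the control summits lay at -1453 and -1423 bp from the start and that of NFKB2 KD replicate 1 at 105 bp, and the same NFKB2 KD library had a separate peak of 9.89 with its summit at -1481 bp, outside the window. Along NFKB2 and within 10 kb of it there were 14 and 6 sites with a peak in the controls and 4 and 2 in NFKB2 KD cells. The whole lists held 44672 and 27056 peaks in the controls and 30310 and 11175 in NFKB2 KD cells. At RELB, the usual partner of p52, fold enrichment was 25.1 and 14.6 in the controls and 7.74 and 7.34 in NFKB2 KD cells, while RELA had 9.73 and 8.76 against 7.98 and 8.42. RELB RNA was 56.3 ± 6.77 CPM in the controls and 34.9 ± 4.94 CPM in NFKB2 KD cells (mean ± SD, n = 3; log2 change -0.69 ± 0.15, SE, edgeR adjusted p = 0.319), and RELA RNA had a log2 change of -0.17 (adjusted p = 1.0).

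Of the 10 inhibitors and feedback genes, 7 kept RNA Pol II and 3 were mixed. NFKBIE, which encodes IκBε, had fold enrichments of 35.9 and 25.1 in the controls and 12.8 and 10.8 in NFKB2 KD cells. NFKBIE RNA was 33.3, 35.0 and 38.1 CPM in the controls and 17.0, 23.9 and 18.3 CPM in NFKB2 KD cells, without overlap (log2 change -0.85 ± 0.16, SE, edgeR adjusted p = 0.194, DESeq2 adjusted p = 0.00231). NFKBIA, which encodes IκBα, had 159 and 67.7 against 45.9 and 19.5. At the 7 kept promoters the quantile-normalised fold enrichment of both NFKB2 KD libraries was below both controls in 4 and above in 1, where 17.9% and 17.5% of all 6836 kept sites were. None of the 10 genes fell or rose by edgeR, and 1 fell by DESeq2. An unadjusted edgeR p under 0.05 with lower RNA was found for 6 of the 10, against 1.87% of all genes tested, and with higher RNA for none, against 2.04%.

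Of 25 chemokine and cytokine genes listed, 4 kept RNA Pol II, 8 were mixed, 13 had no promoter peak and none was lost. The list did not hold CCL3, described above, whose promoter lost RNA Pol II and whose RNA fell by DESeq2 (adjusted p = 0.00614). CXCL2, a neutrophil chemokine, had fold enrichments of 159 and 61.7 in the controls and 45.7 and 13.4 in NFKB2 KD cells, against 15.0 and 26.5 untreated and 38.1 and 38.5 in ETS1 KD cells. CXCL2 RNA was 25.4, 32.3 and 41.2 CPM in the controls and 15.0, 10.6 and 21.8 CPM in NFKB2 KD cells (log2 change -1.06 ± 0.24, SE, edgeR adjusted p = 0.409, DESeq2 adjusted p = 0.0195). CXCL3, its neighbour, had 37.6 and 16.1 against 9.17 and 7.4, with a log2 RNA change of -1.03 (edgeR adjusted p = 0.766). IL6 had a peak in 1 library of each group and IL1B in all but NFKB2 KD replicate 2. Of the 18 members tested none passed the edgeR threshold, 9 had an unadjusted p under 0.05 with lower RNA and 1 with higher RNA (1.87% and 2.04% of all genes), and by DESeq2 CXCL2, CXCL5 and IL6 fell and IL32 rose.

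The other gene groups differed in how many promoters were kept, where 27.8% of all protein-coding promoters were. For their RNA counts, 1.87% of all genes tested had an unadjusted edgeR p under 0.05 with lower RNA and 2.04% with higher RNA. All 12 AP-1 and immediate early genes kept RNA Pol II, among them FOS, JUN and EGR1, and none of them passed the edgeR or DESeq2 threshold in RNA (1 had an unadjusted p under 0.05). Of 12 unfolded protein response genes 10 were kept and 2 mixed, and 4 had an unadjusted edgeR p under 0.05 with lower RNA, none of which passed edgeR or DESeq2 after adjustment. ERN1, which encodes IRE1α, had fold enrichments of 85.8 and 53.1 in the controls, 34.0 and 9.61 in NFKB2 KD cells, 20.5 and 36.1 untreated and 40.1 and 37.9 in ETS1 KD cells, and its RNA had a log2 change of -0.48 ± 0.24 (SE, edgeR adjusted p = 1.0). Among 16 ETS family genes, ELF4 lost a weak peak (5.51 and 5.42 in the controls), 5 kept it, 6 were mixed and 4 had none. ETS1 had no peak at its main annotated start and was kept when any annotated start counted, and its RNA had a log2 change of -0.36 ± 0.15 (SE, edgeR adjusted p = 1.0). Of the 12 RNA Pol II subunit genes 8 were kept and 4 mixed, and of 16 pausing and elongation factors 10 were kept, 5 mixed and 1 lost (LEO1, with 4.26 and 4.54 in the controls). Invasion and matrix genes were kept in 9 of 18, mixed in 3 and without a peak in 6. Of the 15 tested, 5 had an unadjusted edgeR p under 0.05 with lower RNA and none passed edgeR after adjustment, and MMP9, a gelatinase with no promoter peak, was the one that passed the DESeq2 threshold (0.646, 1.27 and 3.28 CPM against 0.463, 0.462 and 0.182 CPM, DESeq2 adjusted p = 0.0309, edgeR adjusted p = 0.684). Of the 10 housekeeping genes 7 were kept and 3 mixed, and none of them, nor of the subunit or elongation genes, had an unadjusted p under 0.05 or passed DESeq2 in RNA.

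At the 6836 kept sites the height of the peak was compared, as log2 fold enrichment centred on the median of each library. By limma 1 site was lower (0.0146% of kept sites) and 1 was higher (0.0146%) in NFKB2 KD cells. The lower site was at CXCL8 (chr4:73740388-73745857), which encodes interleukin 8. The strongest peak there was 35.5 and 18.5 in the controls and 8.77 and 3.58 in NFKB2 KD cells, a log2 difference of -1.72 ± 0.39 (SE, limma adjusted p = 0.0311). In the first 3 libraries the summit lay 40 to 114 bp from the start, and in NFKB2 KD replicate 2 the only peak at the site lay 2469 to 2679 bp downstream of it, so that the promoter itself had no peak in that library. CXCL8 fold enrichment was 20 and 11.5 in untreated and 11.5 and 9.02 in ETS1 KD cells. CXCL8 RNA was 16.3, 14.4 and 25.2 CPM in the controls and 12.1, 14.0 and 12.1 CPM in NFKB2 KD cells (log2 change -0.55 ± 0.22, SE, edgeR adjusted p = 1.0).

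The higher site ran from within SCD into its downstream flank (chr10:100348489-100368609). SCD encodes stearoyl-CoA desaturase, which makes monounsaturated fatty acids. The strongest peak was 4.71 and 7.25 in the controls and 14.5 and 12.3 in NFKB2 KD cells (log2 difference 1.66 ± 0.37, SE, limma adjusted p = 0.0311). The SCD promoter, in a separate site, had 19.4 and 15.2 against 20.5 and 20.9. SCD RNA was 2250, 2500 and 2730 CPM in the controls and 2680, 3700 and 3200 CPM in NFKB2 KD cells (log2 change 0.36 ± 0.13, SE, edgeR adjusted p = 1.0), against 3920, 4000 and 4670 CPM untreated. The 4 lower sites that came next missed the threshold. They lay at MIR6883 inside PER1, at the SLC7A5 promoter, at an RNA gene inside DHX8 and between genes at chr5:40223714-40225354, with log2 differences of -1.71, -1.71, -1.64 and -1.61 (limma adjusted p = 0.0664 to 0.105). The promoter sites of PER1 and DHX8 themselves had differences of -0.71 and 0.36. The 4 higher sites that came next, near HMGCS1, in MIR100HG and at the promoters of PEBP1 and S100A16, had differences of 1.46 to 1.60 (limma adjusted p = 0.0528 to 0.105). The difference near HMGCS1 ranged from -0.35 to 2.01 over the alternatives, so its direction was not stable. At MIR100HG, PEBP1 and S100A16 the lowest value was 0.97. Both calls were lost with quantile normalisation (limma adjusted p = 0.186 at CXCL8 and 0.17 at SCD), where no site passed and 425 had an unadjusted p under 0.05. Without control replicate 1 the limma adjusted p was 0.999 at both, and no site passed (120 with an unadjusted p under 0.05). The same values, with 195 sites, were found without NFKB2 KD replicate 2. When the peaks of a library were summed over the site, the difference was -1.38 at CXCL8 and 0.76 at SCD (limma adjusted p = 0.685 and 0.74).

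Differences at kept sites moved with the strength of the site. Divided into 10 bins by mean fold enrichment, the median log2 difference went from 0.45 in the weakest bin to -0.62 in the strongest. In the strongest bin the median fold enrichment was 55.9 in the controls and 26.8 in NFKB2 KD cells. The spread of peak heights differed between libraries, with an interquartile range of log2 fold enrichment of 1.44 and 1.10 in the controls and 1.04 and 0.76 in NFKB2 KD cells. With quantile normalisation the bins ranged from -0.08 to 0.16. The lower fold enrichments at strong promoters such as NFKBIA, CXCL2, JUN or ACTB stand beside this narrower range of the NFKB2 KD lists, whose part in them was not tested. With quantile normalisation the log2 difference was -0.64 at NFKBIA, -0.92 at CXCL2, 0.04 at JUN and 0.19 at ACTB. It was -0.52 at NFKBIE, -0.72 at RELB, -0.88 at CXCL3, -0.98 at ERN1 and -0.27 at TNFRSF12A.

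**Figure D3:**
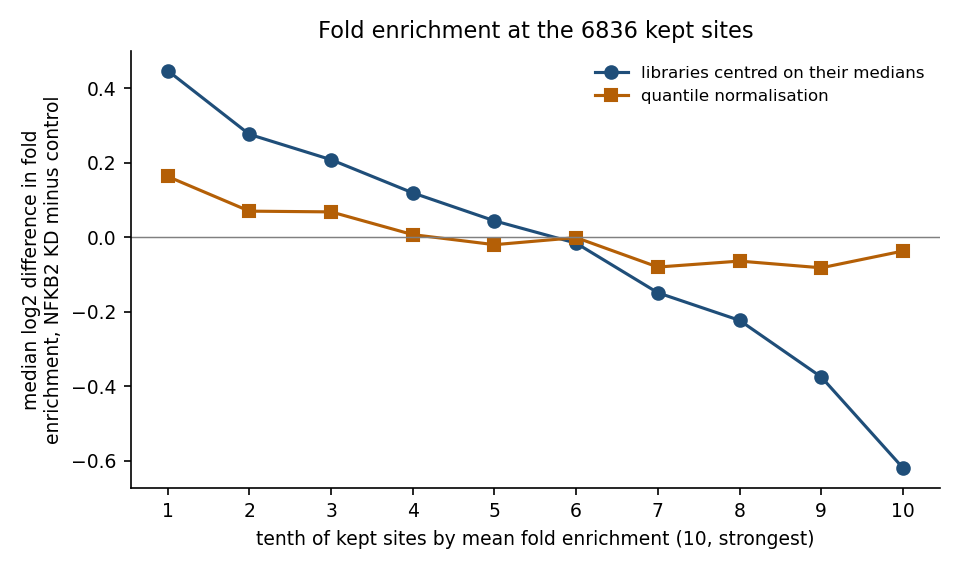
Median log2 difference in fold enrichment (NFKB2 KD minus control) in 10 bins of the 6836 kept sites, from the weakest (1) to the strongest (10), with libraries centred on their medians or quantile normalised. The centred differences ran from 0.45 to -0.62, and the quantile-normalised ones stayed between -0.08 and 0.16.

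Few genes passed the edgeR threshold in RNA between NFKB2 KD and control cells. Of 16879 genes tested by edgeR, 4 fell (0.0237%) and 1 rose (0.00592%). By DESeq2 26 fell and 10 rose. In simulated counts edgeR recovered 51.7% of genes changed by a log2 of 1 and 86.4% of those changed by 2. A gene without a call is therefore not shown to be unchanged. NR5A2, a nuclear receptor, fell 8.42-fold, from 3.41, 3.09 and 6.5 CPM to 0.492, 0.354 and 0.699 CPM (log2 change -3.07 ± 0.37, SE, edgeR adjusted p = 0.00889). G0S2, an inhibitor of adipose triglyceride lipase, fell 1.71-fold, from 45.9, 38.8 and 45.1 CPM to 24.2, 26.9 and 25 CPM (edgeR adjusted p = 0.0392). MEGF6, a protein with EGF-like repeats, rose 6.6-fold, from 0.61, 0.697 and 0.916 CPM to 6.08, 4.54 and 4.19 CPM (edgeR adjusted p = 0.00339). NFKB2 and TRAF1 were the other genes that fell by edgeR. The call of NR5A2 was lost without NFKB2 KD replicate 1 or 2 (edgeR adjusted p = 0.108 and 0.0939), and that of G0S2 without any 1 of the 6 libraries (edgeR adjusted p = 0.0939 to 0.32). With the 2 groups alone in the fit both calls were lost (edgeR adjusted p = 0.0827 for NR5A2 and 0.549 for G0S2). G0S2 also missed the edgeR threshold with DESeq2 size factors (adjusted p = 0.0529), a replicate block (0.0877) and GC and length correction (0.0799). Untreated cells had 0.277 to 0.417 CPM of NR5A2, 12 to 12.4 CPM of G0S2 and 0.0695 to 0.156 CPM of MEGF6, and ETS1 KD cells had 1.94 to 3.4, 43.1 to 51.3 and 1.88 to 3.43 CPM. Of the 5, only TRAF1 lost RNA Pol II in its promoter window. There the control peaks reached the window with their edges and not with their summits. The TRAF1 site as a whole had a peak in NFKB2 KD replicate 1 and none in replicate 2. NFKB2 and G0S2 lacked a promoter peak in NFKB2 KD replicate 2 alone, and NR5A2 and MEGF6 had no promoter peak in any of the 8 RNA Pol II libraries. G0S2 had fold enrichments of 9.15 and 10.2 in the controls, 7.12 in NFKB2 KD replicate 1, none untreated and 7.64 and 8.05 in ETS1 KD cells.

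**Figure D4:**
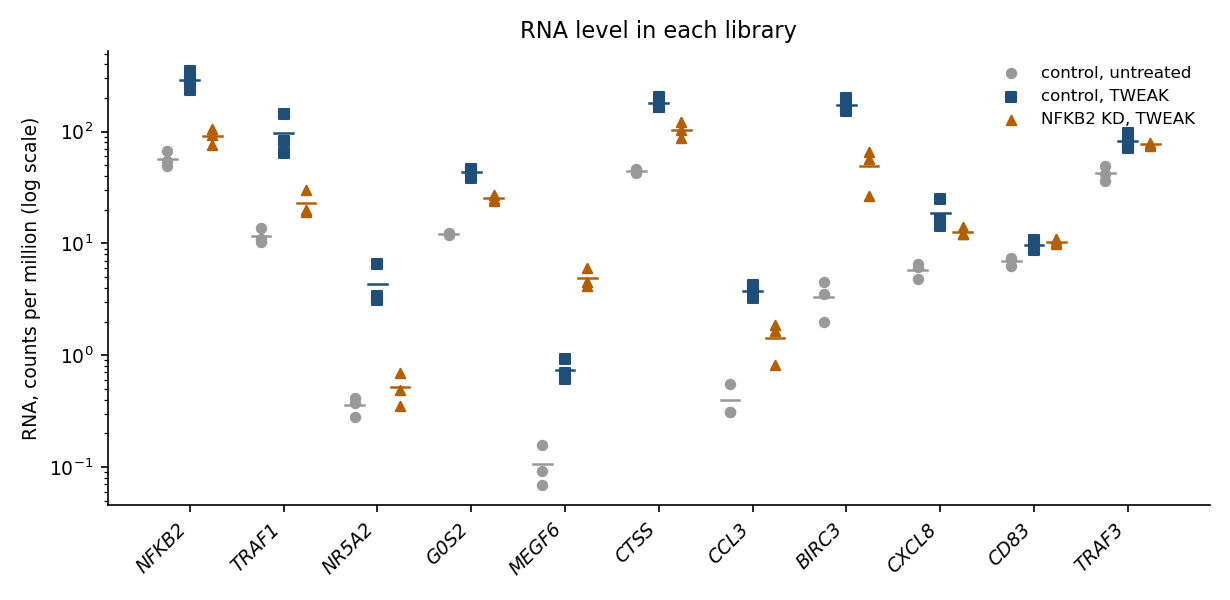
RNA level in CPM (log scale) of 11 genes in each of 3 libraries of untreated control, TWEAK-treated control and TWEAK-treated NFKB2 KD cells, with bars at the means. NFKB2, TRAF1, NR5A2 and G0S2 were below all control libraries in NFKB2 KD cells, MEGF6 was above, and CD83 and TRAF3 overlapped.

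Few genes whose promoter lost RNA Pol II passed the test in RNA. Of the 608 genes that lost it, 422 were tested by edgeR, 1 fell (TRAF1) and none rose. An unadjusted edgeR p under 0.05 was found with lower RNA for 12 and with higher RNA for 3, against 1.87% and 2.04% of all genes tested. By the looser rule of a 1.5-fold change with an unadjusted p no higher than 0.05, 8 of the 422 (1.9%) fell and 2 (0.474%) rose, where 0.989% and 1.26% of all genes tested did. With lists of equal length 3 of 302 (0.993%) fell and 1 (0.331%) rose, so the share that fell was then close to that of all genes. By DESeq2, which called 0.154% of genes lower and 0.0592% higher, 3 of the 422 fell (TRAF1, CTSS and CCL3) and none rose. The median log2 RNA change of genes that lost RNA Pol II was -0.04, against -0.03 for those that kept it, 0.02 for those that gained it and -0.02 over all genes tested. Among genes that lost RNA Pol II, HELB, a DNA helicase, had 3.66, 3.63 and 3.5 CPM in the controls and 2.26, 1.52 and 2.71 CPM in NFKB2 KD cells (edgeR adjusted p = 0.727). CADM1, a cell adhesion molecule, had 0.789, 0.896 and 1.3 against 0.347, 0.544 and 0.365 CPM (edgeR adjusted p = 0.766). HCAR2, a receptor for hydroxy-carboxylic acids, had 1.4, 1.67 and 2.05 against 0.984, 0.571 and 1.0 CPM (edgeR adjusted p = 0.813), and its near-identical neighbour HCAR3 makes these counts uncertain. In all 3 genes the groups did not overlap, and their promoter peaks in the controls were weak, at 4.36 to 7.33. They were picked from the 8 genes that fell by the looser rule, which favours groups that do not overlap. The share of all genes without overlap was not counted. The 2 genes that rose by that rule were CACFD1 and a long non-coding RNA gene, with log2 changes of 0.62 and 1.36.

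None of the 6230 tested genes that kept RNA Pol II and none of the 76 that gained it passed the edgeR threshold. Of those that kept it, 87 had an unadjusted p under 0.05 with lower and 66 with higher RNA, and 7 fell and 1 rose by DESeq2. Of all genes tested, 1.87% and 2.04% had such a p, and by DESeq2 0.154% fell and 0.0592% rose. By the looser rule 0.417% of those that kept it fell and 0.305% rose, below the 0.989% and 1.26% of all genes tested. The 7 that fell by DESeq2 were CXCL2, GPR176, NFKBIE, PLK2, RELB, RRAD and TFPI2, and the 1 that rose was SNN. PLK2, a stress-induced kinase, had fold enrichments of 97.8 and 48.6 in the controls and 38.1 and 22.7 in NFKB2 KD cells, with RNA of 52.8 ± 4.77 and 30.6 ± 6.44 CPM (mean ± SD, n = 3). TFPI2, an inhibitor of serine proteases of the matrix, had 144 and 73.6 against 60.9 and 21.4, with RNA of 2400 ± 49.6 and 1440 ± 361 CPM. The centred difference in fold enrichment passed limma at neither site (adjusted p = 0.654 at PLK2 and 0.62 at TFPI2). With quantile normalisation the log2 differences were -0.08 at PLK2 and -0.32 at TFPI2. Of those that gained RNA Pol II, DGCR6 alone had an unadjusted p under 0.05, and none passed DESeq2. DGCR6 had no promoter peak in the controls, 5.89 and 5.71 in NFKB2 KD cells and 5.14 in untreated replicate 2, and its RNA was 0.826 ± 0.0952 CPM in the controls and 1.62 ± 0.365 CPM in NFKB2 KD cells (edgeR adjusted p = 0.682). DGCR6 has a near-identical copy, DGCR6L, so its values are uncertain.

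**Figure D5:**
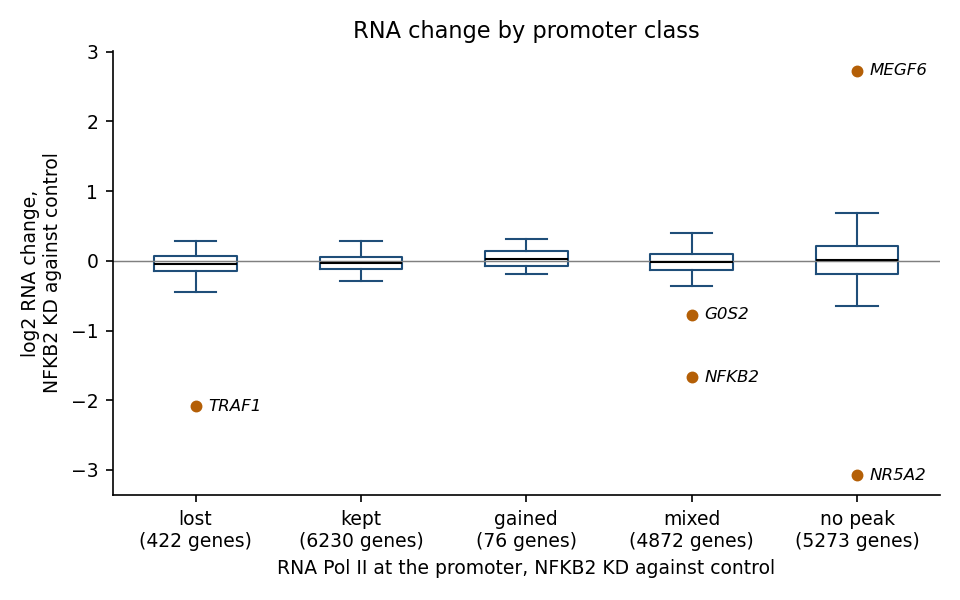
Log2 RNA change (NFKB2 KD against control) of the genes tested, by what happened to RNA Pol II at their promoter, with boxes from the first to the last quartile, whiskers from the 5th to the 95th percentile and points for the 5 genes past the edgeR threshold. The medians lay between -0.04 and 0.02 in all 5 classes, and TRAF1 was the only called gene that lost RNA Pol II in its promoter window.

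The RNA of genes with lost sites in their bodies was described in the same way. Among protein-coding genes, 705 held 1 lost site outside promoters, 120 held 2 and 101 held 3 or more, and their median log2 RNA changes were -0.03, -0.06 and -0.08, against -0.02 for the 11987 tested genes with none. The genes with more lost sites were longer, with a median length of 119.1 kb for 3 or more against 26.3 kb for none. NFKB2 was the one gene with lost sites in its body that passed the edgeR threshold.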

How the data were processed

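RNA Pol II ChIP-seq peak lists and a table of RNA-seq counts were taken as the authors deposited them. According to the methods and the submitters' processing notes, ChIP reads were trimmed with Trimmomatic and aligned to hg38 with Bowtie2, and MACS2 called peaks per library with input subtraction. Blacklisted regions were removed and replicates were not pooled. Which input served which library is not given in the sources used here. For each peak the authors' lists give the fold enrichment over local background (a ratio) and the −log10 q at the summit, both from MACS2. These lists hold no reads, so a difference in depth or background can change which weak peaks are called. The deposited RNA-seq values are raw read counts per gene, made by the authors with STAR and featureCounts from directional polyA libraries. The annotation release and strand setting are not given in the sources used here, so overlapping and antisense genes are uncertain.

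Overlapping peaks of the 4 lists (1 bp sufficed) were joined into sites. Gene starts were those of GENCODE release 44 (MANE Select, otherwise the 5′ end of the gene). A peak at a shared or nearby start counted for every gene whose window it touched. Peak lists and reference had the same chromosome names, and no peak ran past a chromosome end. Log2 fold enrichment of the strongest peak at kept sites was centred on the library's median and compared with limma 3.58.1 (trend, 4 libraries). RNA was tested with edgeR 4.0.16 (quasi-likelihood, TMM, filterByExpr, 12 libraries in 4 groups). DESeq2 1.42.0 was an alternative. Adjusted p (Benjamini-Hochberg) had to be below 0.05. Scripts ran in R 4.3.3 and Python 3.11.15, and both tests were checked on simulated data. Alternatives were lists of equal length, a −log10 q of at least 5, presence in either library, 250 bp around summits, a window of 2000 bp before to 500 bp after the start, any annotated start, quantile normalisation, other RNA settings and each replicate left out. Correction for GC content and length, and gene classes without NFKB2 KD replicate 2, were added after seeing the data. Named genes were NFKB2, ETS1 and ERN1, members of the gene lists, the genes past the thresholds in each promoter class, and the 5 sites per class or direction that ranked first. CTSS, CCL3, CXCL8 and other single genes described beyond that rule were chosen after their values were seen. The members and gene lists were chosen with earlier results of these data known. Intervals are exact binomial intervals and cover counting error only.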

Additional observations from a re-analysis of the deposited data

How the results depend on the processing

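Counts of sites depended on the lists more than on the windows. Lost, kept and gained sites numbered 545, 5214 and 320 with lists of equal length, 955, 4209 and 105 with a −log10 q of at least 5, and 32775, 17917 and 10794 when a peak in either library sufficed. Gained sites numbered 351 with summit windows. With 1 library left out, lost sites ranged from 2618 to 26794, kept sites from 7130 to 11945 and gained sites from 499 to 9680. Lost, kept and gained promoters numbered 384, 6286 and 207 with equal lists and 2551, 12045 and 817 with either library. They ranged from 827 to 3286 (lost) and from 257 to 653 (gained) with 1 library left out. The promoter shares of lost, kept and gained sites were 25.8%, 81.5% and 44.2% with the wider window and 53.0%, 84.7% and 49.7% with equal lists. Fewer lists make each class easier to enter, and the causes of the other shifts were not tested.

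At kept sites, lower and higher calls numbered 0 and 0 with quantile normalisation and 0 and 3 with a −log10 q of at least 5 in all libraries, and ranged from 0 to 13 and from 0 to 6 with 1 library left out. With a replicate block they numbered 229 and 27. The labels do not say whether same-numbered libraries form pairs. Deviations of same-numbered RNA libraries correlated with r = 0.407, 0.0945 and 0.24 for replicates 1, 2 and 3. Those of the peak heights, which hold only 2 pairs, correlated with r = 0.269. These values do not settle whether the libraries were paired. In RNA the replicate block gave 3 genes that fell and 1 that rose.

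Genes that fell and rose numbered 26 and 10 by DESeq2, 33 and 54 without a filter on low counts, 167 and 212 by the looser unadjusted rule, and 1 and 1 with the 2 groups alone. Those that rose numbered 2 with GC and length correction. With 1 library left out, 1 to 3 genes fell and 1 to 2 rose. Of genes whose promoter lost RNA Pol II, 3 fell by DESeq2, 3 without the filter, 0 with the 2 groups alone and 8 by the unadjusted rule (2 rose), and 0 to 1 with 1 library left out. Of those that kept it, 7 fell and 1 rose by DESeq2, 9 and 3 without the filter and 26 and 19 by the unadjusted rule, and 2 fell with classes set without NFKB2 KD replicate 2. Of those that gained it, 1 rose by the unadjusted rule. NFKB2 and MEGF6 passed in all 13 alternatives, NR5A2 in 10, TRAF1 in 7 and G0S2 in 3. No value reversed its direction among called results. The read depth of the peak lists is unknown, which limits every statement on weak peaks.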

Other observations

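IL32, a cytokine with a p52 site at its promoter and no RNA Pol II peak there, was the one chemokine or cytokine gene with higher RNA by DESeq2. Its RNA was 1.94, 2.14 and 3.22 CPM in the controls and 6.98, 5.74 and 5.02 CPM in NFKB2 KD cells, without overlap (log2 change 1.27 ± 0.24, SE, edgeR adjusted p = 0.194), and 0.0922 to 0.219 CPM in untreated cells.

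Along ETS1 and within 10 kb of it, 37 and 12 sites had a peak in control replicates 1 and 2 and 10 and 1 in NFKB2 KD replicates 1 and 2. The whole lists of these libraries held 44672, 27056, 30310 and 11175 peaks, and the part of list length in such counts was not tested. Near TRAF3 the numbers of sites with a peak were 9 and 1 against 0 and 0, and near SCD they were 4 and 4 against 6 and 4, with 1 gained site. At SCD the NFKB2 KD lists thus held as many sites as the control lists or more, although the second NFKB2 KD list was the shortest of the 4.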
